A study of Mus musculus with 2 samples.

Results

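The 8 genes of the red cell membrane skeleton, Sptb, Ank1, Epb41, Epb42, Slc4a1, Rhag, Add2 and Tmod1, were examined for CTCF binding in the embryonic mouse liver. They were taken by name as the main parts of the skeleton and its anchors, 8 of 21938 protein-coding genes in the GENCODE annotation vM21. Every peak of the study's optimal list with its summit inside 1 of these genes, or up to 20 kb from either end, was counted as a member peak. The rule gave 73 of 50909 peaks. CTCF ChIP-seq, in which DNA bound by this zinc finger protein is pulled down with an antibody and sequenced, was made on livers of B6NCrl embryos at day 14.5, from both sexes, ground to powder and pooled from several dissections. The 2 libraries, replicate 1 and replicate 2, are numbered in the labels as biological replicates. They form 1 untreated group and come from 1 pooled tissue sample. Their spread was therefore taken to cover the making and sequencing of libraries and not differences between animals. Optimal and conservative are the names of 2 lists of peaks thresholded by a measure of reproducibility. A peak of the optimal list need not be present in both replicates. Of all optimal peaks, 3.42% had no summit of replicate 1 within 100 bp and 3.52% had none of replicate 2. Among the 73 member peaks, 2 had none of replicate 1 and 3 had none of replicate 2. Read depth is unknown, and a peak in a mixed tissue does not tell whether many cells carried CTCF weakly or few cells strongly, nor which cells.

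The membrane skeleton is a net of spectrin tetramers under the red cell membrane, tied at junctions to short actin filaments. Beta-spectrin (Sptb) binds ankyrin (Ank1), which holds the net to the anion exchanger band 3 (Slc4a1), together with protein 4.2 (Epb42) and the Rh-associated glycoprotein (Rhag). Protein 4.1 (Epb41), beta-adducin (Add2) and tropomodulin (Tmod1) work at the junctions, where they strengthen the bond of spectrin to actin and cap the filament ends. Red cell precursors are a main population of the fetal liver, and Ank1 and Epb41 are known for several alternative promoters. CTCF reads an asymmetric DNA motif, and the strand of that motif matters for the loops it anchors.

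The strongest peak of each window shows which DNA was bound. The sequences below are 30 bases of the reference genome GRCm38.p6 (mm10), each 5′ to 3′ on the strand of the best match to the core CTCF motif, with its 14 bases in capitals. All positions here are 1-based on mm10. Each of these matches has 2 or fewer mismatches.

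Sptb, intron, chr12:76650220-76650249: caggatggCCAGCAGGTGGAGAcatcagtc
Ank1, intron, chr8:23028071-23028100: cccagaagGCACCAGGGGGCGCtctggagc
Epb41, downstream flank, chr4:131916643-131916672: cggcccgaCCGCCAGGGGGCGCcccacaca
Epb42, upstream flank, chr2:121041268-121041297: cctgtgttCCAGCAGGGGGAGAcagacact
Slc4a1, upstream flank, chr11:102377323-102377352: ccacctggCCTCCAGGGGGCTCatgctgtt
Rhag, upstream flank, chr17:40794116-40794145: tgacaccgCCCCCACGTGGCGGctggaggc
Add2, alternative start, chr6:86085681-86085710: gatgatgaCCCATAGGGGGCGCtaatgcac
Tmod1, downstream flank, chr4:46126704-46126733: agtcctgcCCACCAGATGGCAGcatcttcc

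Their signals ran from 198 for Slc4a1 to 450 for Epb41, on the peak caller's own scale, where the median of all optimal peaks is 67.9. A second set of sites looked alike across genes. When the 30-base sequences of the 56 member peaks with a match were joined wherever 2 of them differed at 9 or fewer positions, 17 fell into 1 group, from every gene but Rhag. All 17 lie in sequence that the reference writes as repeat-masked, which marks copies of mobile elements and simple repeats. The strongest of each gene shows the shared core and shared flanks.

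Sptb, intron, chr12:76585212-76585241: cttggtgtCCAGAAGAGGGCATcagagccc
Ank1, downstream flank, chr8:23158805-23158834: tgaggaggCCAGAAGAGGGCGTcggaacac
Epb41, downstream flank, chr4:131908082-131908111: cacagaggCCAGAAGAGGGCAGtagatccc
Epb42, downstream flank, chr2:121003793-121003822: cttagagaCCAGAAGATGGCATcagatgtc
Slc4a1, downstream flank, chr11:102339790-102339819: tgaggaggCCAGAAGAGGGCGTtgggtccc
Add2, upstream flank, chr6:86021131-86021160: cacagagaCCAGAAGAGGGCATcagatacc
Tmod1, downstream flank, chr4:46130394-46130423: catggtggCCAGAAGGTGGCATcagatccc

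The 17 signals ran from 20.1 to 283, with a median of 55.0, and 15 of the 17 were present in both replicates' strongest peaks. The grouping was chosen after the sequences were seen. Of the 36020 matched sites of the optimal list, 22.0% lay within 9 differences of the group's most common bases, with a median signal of 56.0. Since those bases were taken from the 17 sites themselves, the members' own share is not set against this. The mouse B2 element is known as a carrier of CTCF sites, but the family of these repeats was not identified here. Over all repeat-masked matches, members had 18 of 56 (32.1%) against 24.9% of all matched optimal peaks, and their median signal was 57.7, against 198 for the members' matches outside repeats. The same medians over all matched optimal peaks were 56.0 and 114. Only 3 member peaks carried the motif with no mismatch, in Rhag, downstream of Add2 and downstream of Tmod1. The latter pair have identical core bases and were joined by the same grouping rule. That rule counts the core, so the joining does not show a likeness of their flanks.

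Rhag, intron, chr17:40824767-40824796: cccggactCCAGTAGATGGCGCcctatacc
Add2, downstream flank, chr6:86127103-86127132: caagatccCCACCAGATGGCAGcagctcct
Tmod1, downstream flank, chr4:46126704-46126733: agtcctgcCCACCAGATGGCAGcatcttcc

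All 8 genes had peaks in their windows, against 78.7% of all protein-coding genes, a share over genes of every length. This was not particular to the 8, since every gene of the other lists described below (27, 23, 9 and 4 genes) also had one. The windows of the 8 genes span 1017 kb in all and held 71.8 peaks per Mb, against 38.0 per Mb pooled over all protein-coding genes. Each of the 8 windows was denser than the median gene window of 37.6 peaks per Mb, from 64.7 per Mb for Sptb to 87.1 per Mb for Slc4a1. These 2 lie at percentiles 70.2 and 81.6 of all protein-coding genes, and the other members lie between, so many genes are denser. The pooled density was higher in gene bodies, with 63.2 per Mb against 27.4, and in flanks, with 90.6 against 50.9. Because long genes hold more peaks, each gene was also set beside the genes of its own length class, 1 of 10 classes of equal size by window length. Epb41 had 16 peaks where the median gene of its class had 5, and 4.33% of those genes had at least as many. Ank1 had 14 and Sptb 11 beside the same median of 5, and 7.29% and 13.7% of those genes had at least as many. Add2 had 10 and Tmod1 8 beside a median of 4. The 3 genes around band 3 were nearer to their classes: Slc4a1 and Rhag had 5 peaks each and Epb42 had 4, beside a median of 3. Of the genes in the length class of Epb42, 42.3% had at least as many peaks.

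**Figure D1:**
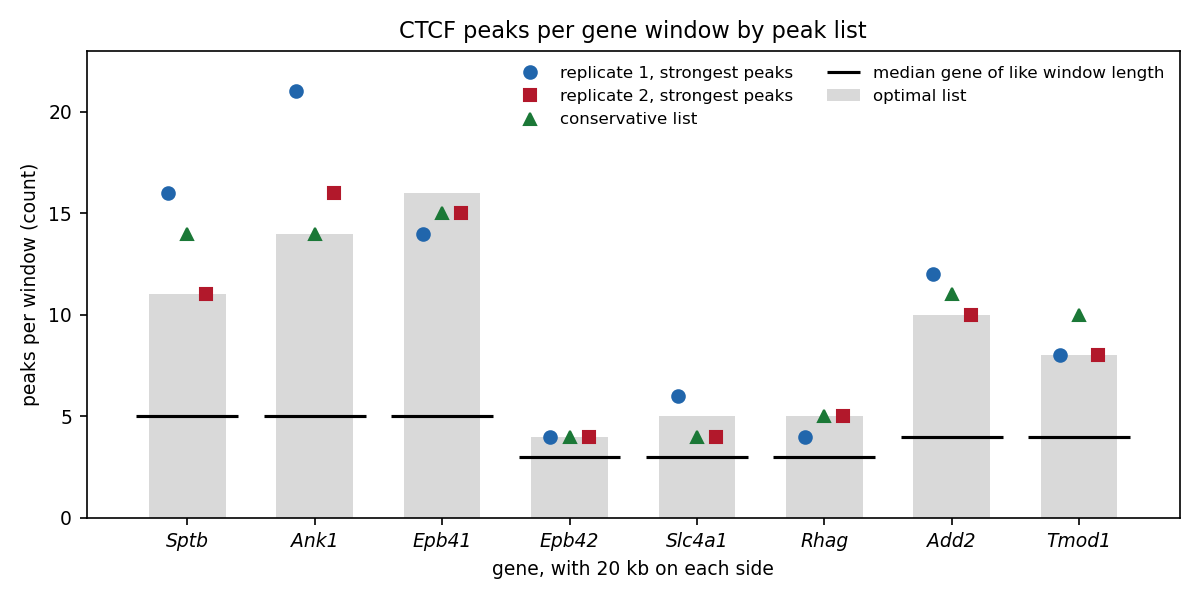
Peaks per gene window (y axis, count) for the 8 genes with 20 kb on each side (x axis). Grey bars are the optimal list, circles and squares the strongest 50909 peaks of replicates 1 and 2, triangles the conservative list, and black lines the median of genes in the same length class. Every bar stands above its black line, and the replicates are farthest apart in Ank1 (21 and 16) and Sptb (16 and 11).

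To carry the replicate error, the same count was made on the 50909 strongest peaks of each replicate. Replicate 1 had 85 peaks in the 8 windows and replicate 2 had 73, a mean of 79.0 ± 8.49 (SD, n = 2), so the optimal count lies within that spread. Ank1 had 18.5 ± 3.54 peaks, Sptb 13.5 ± 3.54, Epb41 14.5 ± 0.707 and Add2 11.0 ± 1.41 (mean ± SD, n = 2 each). Tmod1 had 8 and Epb42 4 in each replicate. Within each library Ank1 came first, with 21 against 14 for Epb41 and 16 for Sptb in replicate 1, and 16 against 15 and 11 in replicate 2. The order of Epb41 and Sptb changed between the replicates, and all 3 stood above the band 3 group in both.

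A motif match, meaning the core CTCF motif within 50 bp of the summit on either strand with at most 2 mismatches, was found in 56 of 73 member peaks, 76.7% (Wilson 95% interval 65.8 to 84.9), against 70.8% of all optimal peaks. The share is near the background and its interval holds it. With 1 mismatch allowed, the members' share of 30.1% was below the 39.7% of all optimal peaks. Intervals cover counting error only, and neighbouring peaks of 1 gene are not independent. Place separated the peaks more clearly. All 13 peaks upstream of the genes and all 16 downstream had a match, but only 27 of 44 in gene bodies did, 61.4% (46.6 to 74.3). In the flanks, 27 of 32 peaks of replicate 1 and 31 of 32 of replicate 2 had a match, and in gene bodies 27 of 53 and 26 of 41. The flank share was thus the higher one in each replicate, although not complete. Pooled over all protein-coding genes, the shares were 67.1% in bodies and 66.2% in flanks, with no such gap; the members' gap was not tested against other genes.

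**Figure D2:**
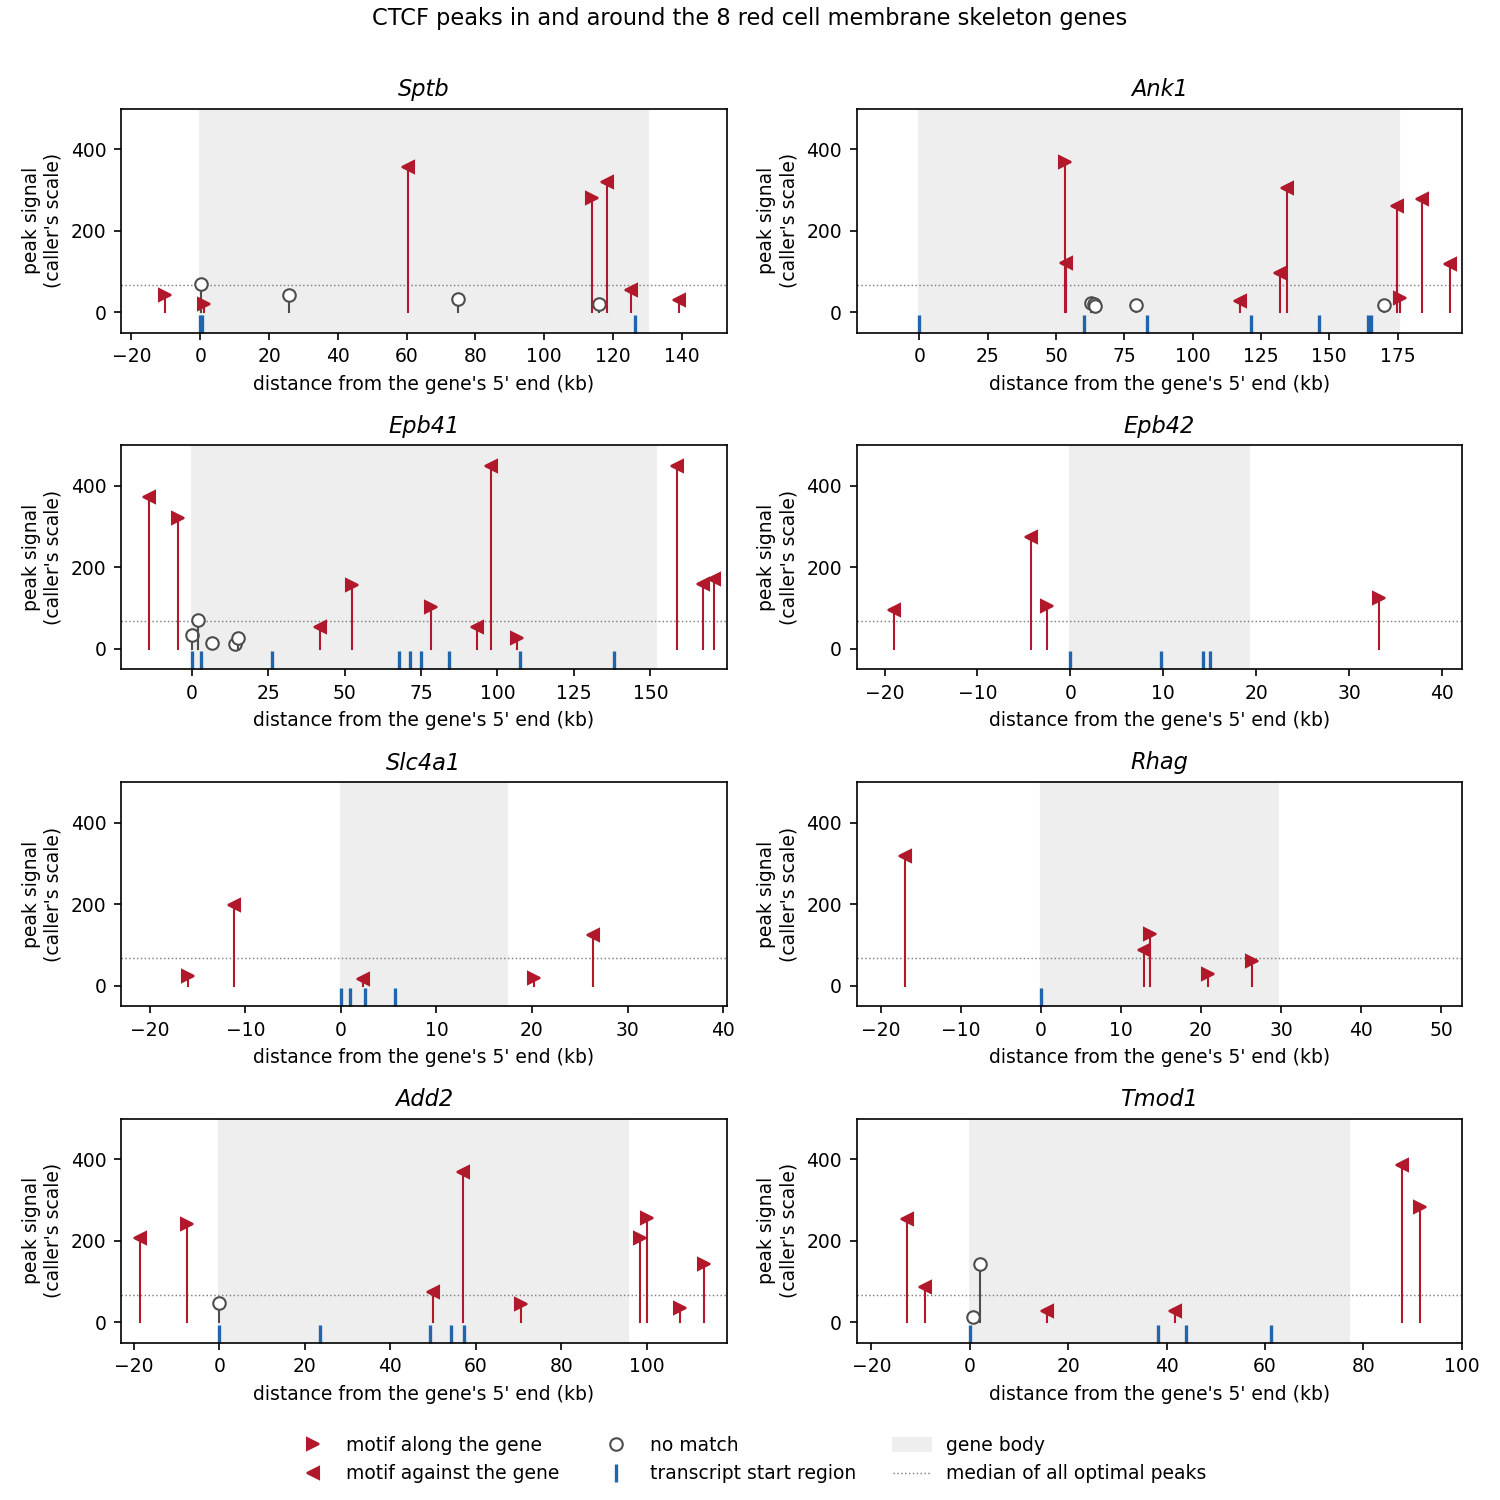
Peak signal (y axis, the caller's scale) against distance from the gene's 5′ end in kb, in the direction of transcription (x axis), for the 8 genes. Filled triangles are peaks with a motif match and point along or against the gene, open circles have no match, grey marks the gene body, blue ticks the annotated start regions, and the dotted line the median of all optimal peaks, 67.9. Open circles lie in gene bodies only, and the tallest peaks of Epb41, Epb42, Slc4a1, Rhag and Tmod1 lie outside the gene, for Epb41 by a narrow margin (450 against 448).

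Signal followed the match. The 17 member peaks without a match had a median signal of 22.5, the 34 with 2 mismatches 111, the 19 with 1 mismatch 144 and the 3 with none 208. Over all optimal peaks the same medians were 35.6, 62.2, 102 and 195. The ranges overlap widely: peaks with 2 mismatches ran from 16.5 to 448, and those with 1 from 27.5 to 450. Of the 73, 41 lay above the median of all optimal peaks, 23 of them in the 29 flank peaks.

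**Figure D3:**
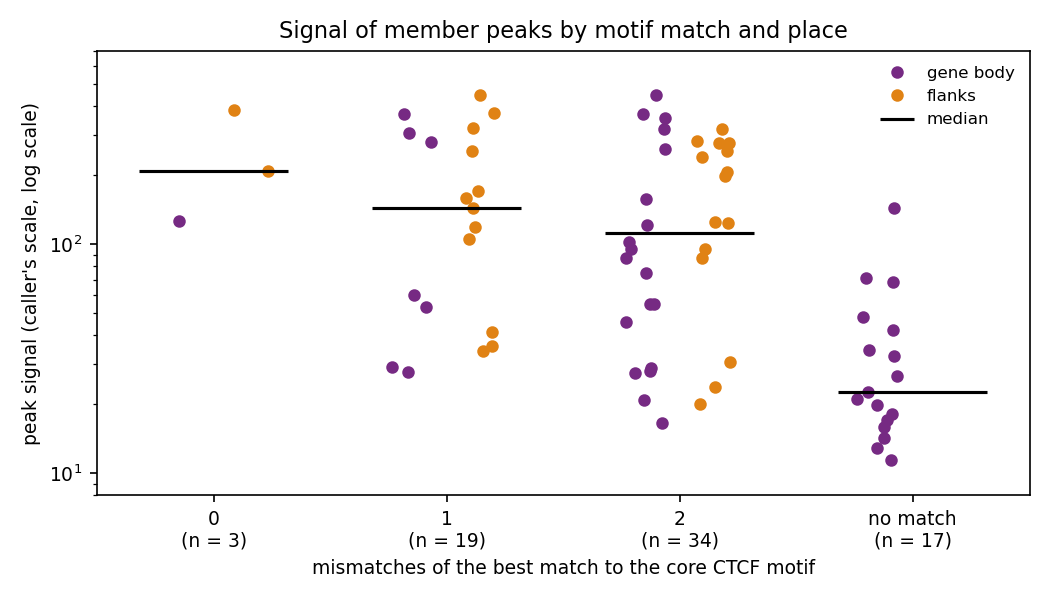
Signal of the 73 member peaks (y axis, log scale, the caller's units) by the number of mismatches in the best motif match (x axis), with gene body peaks in purple, flank peaks in orange and medians as black lines. The medians fall from 208 to 22.5, and no flank peak is in the group without a match.

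Transcript starts were examined next, since CTCF at a promoter and CTCF inside a gene are separate measures. The 8 genes have 69 annotated transcripts with 63 distinct starts, which were merged into 37 start regions when 500 bp or less apart. A peak lay within 1 kb of the first start region in 4 of 8 genes, against 28.2% of all protein-coding genes, and near 4 of the 29 alternative start regions, 13.8% (5.50 to 30.6), against 12.0%. In all, 5 of 8 genes had a peak within 1 kb of an own start, against 35.2% of all protein-coding genes. With 8 genes the interval of that share runs from 30.6% to 86.3%. A gene with more start regions has more places for such a peak. The 8 genes have 29 alternative regions and all 21938 genes have 30608, so the 8 have more per gene. The 8 peaks at own starts had a median signal of 41.4, 4 of the 8 had a match and 4 were in both replicates' strongest peaks. Of all 11216 optimal peaks within 1 kb of a start of any gene, 49.8% had a match and the median signal was 57.3. The match share of the 8 is near this, but its interval runs from 21.5% to 78.5%. With member peaks at starts of other genes included, 10 of 14 had a match, 71.4% (45.4 to 88.3), with a median signal of 71.5. The 6 member peaks at starts of other genes in the windows had a median of 226, and all 6 had a match and were in both replicates. GC content, in the 101 bases around the summit, had a median of 67.8% in the 8 own-start peaks and 53.5% in the other 65; its part in the match share was not tested.

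**Figure D4:**
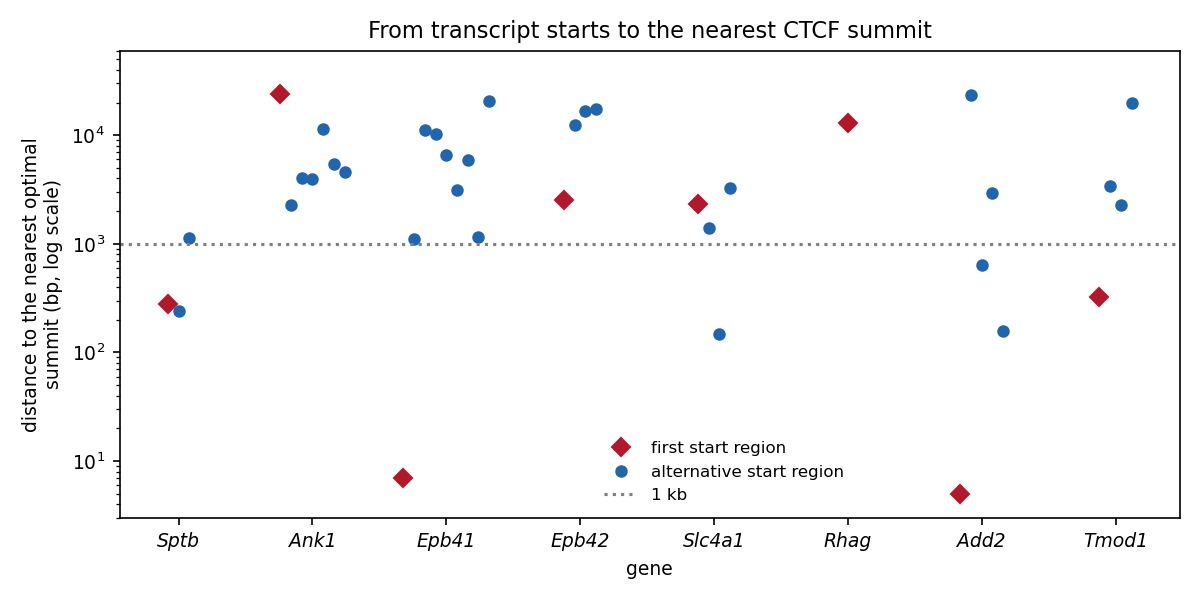
Distance from each start region to the nearest optimal summit (y axis, bp, log scale) by gene (x axis), with first start regions as red diamonds, alternative ones as blue circles and 1 kb as a dotted line. Of the 37 regions, 8 lie under the line, at Sptb, Epb41, Slc4a1, Add2 and Tmod1, and none of Ank1, Epb42 or Rhag does.

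Sptb, which encodes the beta chain of red cell spectrin (chr12:76580488-76710547, minus strand), had 11 peaks, 9 of them in the gene body. At its start, a peak of signal 68.1 lay 281 bp inside the first start and 243 bp upstream of the Sptb-202 start, in untranslated exon sequence. It had no match, and its relative signal, defined as the replicate's own peak signal divided by the median of that replicate's 50909 strongest peaks, was 1.29 in replicate 1 and 0.733 in replicate 2. A weaker peak of 20.9 followed 629 bp into Sptb-202, with a match (chr12:76709413-76709442, agttcaggGCAGCAGAGGGGGCcgggcctc), and was not in the strongest peaks of replicate 2. The stronger of these start peaks was at about the median of all optimal peaks, while 3 peaks well above it lay deep in the gene. The peak 60315 bp in, at an intron, had a signal of 357 and relative signals of 6.42 and 4.34 (mean 5.38 ± 1.48 SD, n = 2). Toward the 3′ end, a peak of 281 in an untranslated exon and one of 320 in an intron lay 113995 and 118132 bp in, on opposite strands. The third annotated start, of the noncoding Sptb-203, lay 1132 bp from an intron peak of 55.0, just outside the 1 kb limit.

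Ank1, which encodes the adaptor between spectrin and band 3 (chr8:22974844-23150497, plus strand), has 16 distinct starts in 7 regions, and no optimal peak lay within 1 kb of any. The first start was 23905 bp from the nearest optimal summit. The other lists differed at 2 alternative start regions. At the start of Ank1-206, a coding transcript, the conservative list held a peak of signal 32.6 at 1 bp, and the replicates held their own summits within 3 bp of a start, at relative signals of 0.465 and 0.389. At the start of Ank1-202, the conservative list held a peak of 35.2 at 2 bp, with relative signals of 0.711 and 0.304. The nearest optimal summits were 2423 and 4069 bp away, so both starts had weak signal in both libraries and are missing, among the 4 lists used, from the optimal list alone. Ank1 had 5 conservative peaks with no optimal summit within 100 bp, of 14 such peaks in all windows, and Sptb had 4.

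The strong binding of Ank1 was intronic and at its 3′ end. A pair of summits 385 bp apart lay between the first 2 start regions, 7017 and 6632 bp upstream of Ank1-206, with signals of 369 and 121. The first had relative signals of 6.22 and 5.08, and the second 1.25 and 2.35, so the replicates put them in the same order. Their motifs lie on opposite strands and point toward each other. Between them, replicate 1 also listed a further summit, 182 bp from the nearest optimal one, at a relative signal of 2.68. The 101 bases around each of the pair read as follows on the plus strand, with the match in capitals.

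Ank1, first of the pair, chr8:23028032-23028132: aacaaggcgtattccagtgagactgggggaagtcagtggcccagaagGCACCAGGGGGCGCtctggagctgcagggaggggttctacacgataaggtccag
Ank1, second of the pair, chr8:23028417-23028517: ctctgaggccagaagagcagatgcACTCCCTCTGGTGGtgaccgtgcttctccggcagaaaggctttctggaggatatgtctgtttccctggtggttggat

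Further along, an intron peak of 305 lay 134608 bp in, and a peak of 260 at the 3′ end lay within 1 kb of a start of Gm15816, an antisense gene. The downstream flank held a peak of 277 in an untranslated exon of Nkx6-3, a homeobox gene, at 1 of the alike repeat sites. The 5 unmatched peaks of Ank1 were all intronic, between 16.0 and 22.5, and none was in both replicates' strongest peaks.

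Epb41, which encodes protein 4.1 (chr4:131923413-132075321, minus strand), had the most peaks in the optimal list, though fewer than Ank1 in each replicate, and both of the strongest in the set. At its start, a peak of 34.5 lay 7 bp from the Epb41-204 start, with no match and relative signals of 0.792 and 0.251. Of its 8 alternative start regions none had an optimal peak within 1 kb, the nearest being 1109 and 1152 bp away for Epb41-201 and Epb41-210. The largest peak inside the gene lay 97913 bp in, at an intron, with 448 and relative signals of 7.69 and 5.84 (mean 6.77 ± 1.31 SD, n = 2). A peak of 450 lay in the downstream flank, in an intron of the noncoding gene Gm12992, with 8.07 and 5.50 (mean 6.78 ± 1.82 SD, n = 2). These did not differ beyond the spread between replicates. Upstream, peaks of 320 and 373 lay 4465 and 13772 bp from the first start. The gene was thus flanked by strong matched peaks on both sides, while the first 15082 bp held 5 unmatched peaks of 11.4 to 71.0. The strong intron site has 2 mismatches to the core motif, and its surroundings read as follows on the plus strand.

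Epb41, intron, chr4:131977358-131977458: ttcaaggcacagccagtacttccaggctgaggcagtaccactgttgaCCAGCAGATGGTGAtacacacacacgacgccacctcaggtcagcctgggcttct

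Add2, which encodes beta-adducin (chr6:86028681-86124409, plus strand), was the gene with strong binding at an own start. Its 10 peaks were all in both replicates' strongest peaks. At the first start, a peak of 48.2 lay 5 bp inside, with no match and relative signals of 0.703 and 0.723. At the third start region, 640 bp into Add2-201, a peak of 74.9 had a match (chr6:86078706-86078735, caaagctgACACCAGGGGGCCCaagaaaca). At the fifth, 157 bp upstream of the coding transcript Add2-203, a peak reached 370, with relative signals of 6.47 and 4.90 (mean 5.69 ± 1.11 SD, n = 2). It was the largest of the 8 own-start peaks, and the next was Add2-201's. Its match, printed above and shown here within 101 bases of the plus strand, lies on the strand opposite to the gene.

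Add2, alternative start, chr6:86085655-86085755: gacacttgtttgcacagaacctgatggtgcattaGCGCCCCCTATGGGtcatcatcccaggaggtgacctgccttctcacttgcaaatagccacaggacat

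Around Add2, 2 upstream peaks of 207 and 241 and 4 downstream peaks of 36.0 to 257 all had a match. The 4 downstream motifs all point along the gene.

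Tmod1, which encodes the cap of the slow-growing filament end (chr4:46038935-46116032, plus strand), had 8 peaks. The optimal peak at its first start, 323 bp into Tmod1-205, was the weakest of the 8 own-start peaks at 12.8, with no match and no summit of replicate 1 within 100 bp. The conservative list and both replicates had summits of their own within 1 kb of this start, between 280 and 658 bp from the optimal summit, so the position of this weak signal was not shared between lists. An intron peak 2157 bp in was the strongest member peak without a match, at 144, and was present in both replicates at 2.52 and 1.90 (mean 2.21 ± 0.437 SD, n = 2). Its best alignment to the core motif has 4 mismatches, and no match says only that these letters are absent within 50 bp of the summit.

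Tmod1, intron peak without a match, chr4:46041042-46041142: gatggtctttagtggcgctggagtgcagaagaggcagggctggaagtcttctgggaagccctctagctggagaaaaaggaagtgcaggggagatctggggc

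The strongest peaks of the Tmod1 window lay in the flanks. Downstream, in introns of Tstd2, were peaks of 386 with no mismatch, at relative signals of 6.66 and 4.98 (mean 5.82 ± 1.19 SD, n = 2), and of 283 at an alike repeat site. Upstream, a peak of 255 lay at a start of Tdrd7, 12828 bp from Tmod1.

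Slc4a1, which encodes the anion exchanger band 3 (chr11:102348824-102366203, minus strand), had 1 weak peak in its body and 4 in its flanks. The body peak, 16.5, lay 149 bp upstream of the noncoding transcript Slc4a1-203 and 1394 bp from the start region of the coding transcript. It had a match with 2 mismatches (chr11:102363863-102363892, tctggagcCCAGGAGGTGGAGCccagctgg), relative signals of 0.339 and 0.154, and was in neither the conservative list nor the strongest peaks of replicate 2. The largest peak of the window, 198, lay 11153 bp upstream at a start of Bloodlinc, a long noncoding RNA gene known from red cell precursors. Its relative signals were 3.07 and 2.82 (mean 2.95 ± 0.171 SD, n = 2), far above those of the body peak in each replicate. A peak of 123 lay in the downstream flank.

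Epb42, which encodes protein 4.2 (chr2:121017891-121037072, minus strand), had no peak in its body and 4 in its flanks, all with a match and all in both replicates. The first start was 2530 bp from the nearest summit, a peak of 105 at an alike repeat site. The largest peak, 276, lay 4220 bp upstream with relative signals of 4.10 and 4.19 (mean 4.15 ± 0.0637 SD, n = 2), and was thereby slightly higher in replicate 2. A peak of 95.6 lay in an intron of the neighbouring Tgm5, another gene of the transglutaminase family to which Epb42 belongs.

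Rhag, which encodes the ammonium channel-like partner of the Rh proteins (chr17:40811126-40840754, plus strand), had 4 intron peaks and 1 upstream. The upstream peak, 319, lay 16998 bp away at a start of Crisp2, a gene known from sperm, with relative signals of 5.84 and 3.77 (mean 4.81 ± 1.46 SD, n = 2). The nearest summit to the start of Rhag was 12847 bp inside the gene. All 5 peaks had a match. The intron peaks, in order along the gene, had relative signals of 0.507 and 2.11, 1.54 and 2.27, 0.280 and 0.510, and 0.847 and 0.946 in replicates 1 and 2. All 4 were thus higher in replicate 2, against the general direction of the member peaks. In the RefSeq table of promoters (250 bases before to 50 after a start, GRCm38.p6), 8 windows matched 6 of the 8 genes by symbol. Only that of Rhag held a match to the core motif, as did 14.4% of all 32851 windows, at chr17:40811150-40811179 on the minus strand (tcatgactGCAGCAGAGGACAGaggtgcaa), where no optimal peak lay.

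Support by both replicates together was close to the background. Taken singly, replicate 1's strongest peaks held 66 of 73 member peaks, 90.4% (81.5 to 95.3), against 84.8% of all optimal peaks. Those of replicate 2 held 59, 80.8% (70.3 to 88.2), against 87.3%, so the 2 departed in opposite directions, each with an interval that holds the background. Both replicates' strongest peaks held 55 of 73 member peaks, 75.3% (64.4 to 83.8), against 76.7% of all optimal peaks, and the conservative list held 63 (86.3%), against 86.4% of all optimal peaks. The 18 peaks not in both had a median signal of 20.5 and a highest of 41.4, whereas the 55 in both had a median of 127. Of the 44 body peaks 28 were in both, and of the 29 flank peaks 27 were. All peaks of Epb42 and Add2 were in both, against 8 of 14 in Ank1 and 3 of 5 in Slc4a1. Among the 68 member peaks with a summit in both replicates, 51 (75.0%) had the higher relative signal in replicate 1, with a median ratio of 1.32. Over all optimal peaks, 63.6% did and the median ratio was 1.23. Spearman's rho of the relative signals over these 68 peaks was 0.892, a description over peaks that share 2 libraries.

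**Figure D5:**
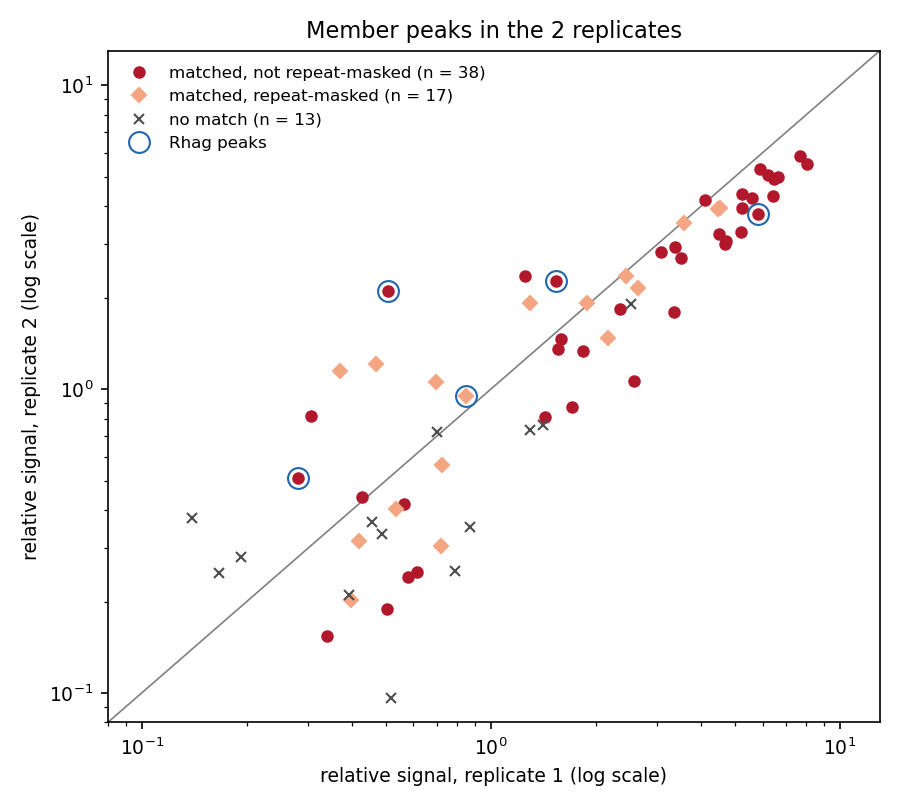
Relative signal in replicate 1 (x axis, log scale) against replicate 2 (y axis, log scale) for the 68 member peaks with a summit in both, by motif match and repeat masking; the grey line marks equal values and blue rings mark Rhag. Of the 68 points, 51 lie under the line, and 4 of the 5 Rhag points lie above it.

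Motif strands gave no common orientation. Of the 56 matches, 23 pointed along their gene. In the 6 genes with a match in both flanks, the nearest pair around the gene pointed toward each other at Sptb and Epb41, away from each other at Slc4a1, and the same way at Epb42, Add2 and Tmod1. Over all 5305 protein-coding genes with such a pair, 25.5% were of the facing kind, and nothing can be read from 2 of 6.

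Other gene lists, described by counts, put these values in context. Among 27 other red cell membrane genes, 19 had a peak at an own start, with a median of 6 peaks per window and 101 peaks per Mb, against 70.1 for the median of the 8 genes, in windows of a shorter median length (62.5 kb against 126). Their strongest own-start peaks were at Piezo1, a mechanosensitive channel (622), Dmtn, the actin bundler dematin (546), and Flot1, a raft protein (499.9). Each exceeded the 370 of Add2. Among 23 relatives of the 8 genes, such as other spectrins, ankyrins and adducins, 14 had an own-start peak. Their median density was 36.9 per Mb, in windows of like median length (131 kb against 126). These relatives were not matched to the 8 genes 1 by 1. Their windows ran from 44.7 to 669 kb and their densities from 15.3 to 137 per Mb, past the 87.1 of Slc4a1. The strongest own-start peaks of the relatives were at Rhcg (323), Epb41l4b (253) and Tgm2 (253). Of 9 heme synthesis enzymes 6 had an own-start peak, led by Urod (433), Ppox (266) and Fech (79.0), and of 4 erythroid regulators all 4 did, led by Gfi1b (382), Epor (84.0) and Nfe2 (83.2). The median densities of these 2 lists were 125 and 138 per Mb, both above that of the 8 genes, in shorter median windows of 55.2 and 47.4 kb, and no difference between lists was tested.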

How the data were processed

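Per the labels and the deposited text files, the authors gave narrowPeak lists on mm10, called against a control, for each replicate, and thresholded by the irreproducible discovery rate (optimal and conservative). The deposited signal values come from the peak caller, and no source gives their scale, so signals were compared within a list or as relative signal. The aligner and the peak caller are not given in the sources used here. Control, tracks and pooled list were not used.

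Summits were placed on GRCm38.p6 and GENCODE vM21 with Python 3.11.15, numpy 2.4.6 and pandas 2.3.3. The replicates' lists hold 300000 peaks each, and the strongest 50909 were used. Wilson intervals came from the counts. No test across features was run, since there is 1 group. Motif search and counting were tested on simulated data. The 21 peaks on unplaced scaffolds stayed out of shares of all peaks. The 8 genes and the lists were chosen with earlier results of these data known. All 8 genes, their strongest peak and their own-start peaks were to be named, and the 3 strongest own-start genes of each list; other single peaks were chosen after their values were seen. Sptbn5 was listed but is not protein-coding in this annotation and was not counted. Alternatives were the conservative list, each replicate alone, peaks above the median signal, other flanks, start distances, motif settings and summit distances, and the mean as scale.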

Additional observations from a re-analysis of the deposited data

How the results depend on the processing

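No paired analysis was possible because the 2 replicates form 1 group. Of 27 alternative values of the counts and shares, 17 stayed close to the reported ones, and 10 moved. Counting only peaks above the median signal left 41 peaks, 2 genes with an own-start peak (Sptb and Add2) and a match share of 92.7%, against 84.1% of all optimal peaks above that median. Without the flanks there were 44 peaks, with a match share of 61.4% and 63.6% in both replicates, 0 peaks for Epb42 and 1 for Slc4a1; with 50 kb flanks these genes had 13 and 15. The match share was 30.1% with 1 mismatch allowed, below the 39.7% of all optimal peaks, and 89.0% with 3, equal to the 89.0% of all, so the members' slightly higher share at 2 mismatches (76.7% against 70.8%) depends on that setting. Taking 2 times as many strongest peaks put 89.0% in both replicates. No share of all optimal peaks was set beside this value or the 63.6%, so neither compares the members with other peaks. Leaving out each replicate in turn gave 73 to 85 peaks, 4 to 6 genes with an own-start peak and match shares of 63.5% to 78.1%. The number of genes with an own-start peak was 5 in the optimal and in the conservative list, but the conservative list had Ank1 in place of Slc4a1. Of 90 alternative values for single genes and peaks, 67 stayed close and 23 moved; 11 of the 23 were relative signals divided by the mean in place of the median, which lowers each of them. Read depth is unknown, so weak peaks present in 1 list only cannot be set against a detection limit.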
